A study of Arabidopsis thaliana with 8 samples.

Results

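The transcripts described here are those of 53 cell cycle and anaphase-promoting complex (APC/C) genes, out of the 37336 genes listed in each count file. They were taken from a list of gene identifiers: 10 D-type, 7 A-type and 8 B-type cyclins, 5 cyclin-dependent kinases (CDKs), 7 KRP and 3 SIM or SMR inhibitors, 6 regulators of the APC/C, 4 E2F factors and RBR1, and 2 cytokinesis genes. All 53 identifiers were found in the files.

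RNA was taken from whole *Arabidopsis thaliana* seedlings grown on MS agar plates under long days and collected at 12 days after germination. The 4 *ubp5* libraries come from a deletion line in which CRISPR/Cas9 with a pair of guide RNAs removed part of the gene of the ubiquitin protease UBP5, and the 4 Col-0 libraries come from the wild-type accession in which that line was made. The labels give both groups the same growth and RNA extraction, and only 1 *ubp5* line was sequenced. Whole seedlings mix dividing and non-dividing tissues, so fewer cells of a type and less RNA per cell cannot be told apart in these values. The method primes each transcript at its poly(A) tail and counts distinct molecular identifiers, so that a transcript gives about the same number of counts whatever its length.

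In the plant cell cycle, D-type cyclins with CDKA;1 start the passage from G1 into S phase by phosphorylating RBR1, which otherwise holds back E2F factors and the DNA replication genes they switch on. A-type cyclins act from S phase to mitosis, and B-type cyclins with the plant-specific B-type CDKs drive G2 and mitosis, while KRP, SIM and SMR proteins bind and inhibit CDK complexes. The APC/C is a ubiquitin ligase that marks mitotic cyclins for destruction. CDC20 proteins activate it in mitosis, CCS52 proteins activate it at mitotic exit and in endoreduplication, the replication of DNA without division that accompanies the growth of leaf cells, and SAMBA is a plant-specific regulator of the complex linked to the turnover of A-type cyclins.

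Library totals were 1440510 to 2595285 counts in *ubp5* and 2572842 to 2997743 counts in Col-0, so that *ubp5* values rest on fewer molecules. UBP5 itself had 14, 13, 6 and 16 counts in *ubp5* and 47, 57, 32 and 51 counts in Col-0, in the direction of the labels. Col-0 replicate 1 stood apart from the other Col-0 libraries over all genes, with a second principal component of -45.2 against 8.16 to 21.4 in the other Col-0 libraries and -10.1 to 5.88 in *ubp5*. Without it, SAMBA, CDKA;1 and SMR1 still passed an adjusted p of 0.05 in edgeR, and CDKB2;2 and KRP1 did not. That loss was not particular to this library, since CDKB2;2 and KRP1 each passed in only 1 of the 8 fits with 1 library left out. Genes reaching about 3.87 CPM (the count scaled to library size) in at least 4 libraries were tested (15649 genes), which kept 35 of the 53 members and left 18 untested. A gene was called at an adjusted p under 0.05 (edgeR's quasi-likelihood test, Benjamini-Hochberg adjustment over the tested genes) with a log2 fold change (*ubp5* over Col-0) of at least 1 in size. Of the genes tested, 1.91% were called as higher in *ubp5* and 2.93% as lower, and the median over them all was -0.01 on the log2 scale.

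Between the genotypes, transcript levels changed for few of the members. SAMBA fell the most, with a ratio of summed counts of 0.120, and CDKA;1 rose, both with an adjusted p under 0.05 in all 14 alternative settings. The inhibitor gene SMR1 rose and passed in 11 of the 14. The mitotic kinase gene CDKB2;2 fell and the inhibitor gene KRP1 rose, but each passed in only 5 of the 14. Of the 35 tested members, 0 were called higher and 1, SAMBA, was called lower by edgeR, and DESeq2 likewise called 0 higher. With no fold threshold, 3 members passed an adjusted p of 0.05 as higher (4.59% of all tested genes did) and 2 as lower (6.34% of all), and 7 had an unadjusted p under 0.05 (25.7% of all), 4 of them higher and 3 lower. In DESeq2, 3 of the 53 members passed the adjusted p, namely SAMBA, CDKA;1 and SMR1. The *ubp5* libraries lay entirely above the Col-0 libraries for 4 members (7.87% of all tested genes) and entirely below for 2 (9.37% of all). Over the tested members 15 log2 fold changes were positive and 20 negative, with a median of -0.07, and 48.4% of all tested genes had a positive value. The shares of members that passed or did not overlap were near those of all genes, so the counts by themselves do not set the members apart.

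**Figure D1:**
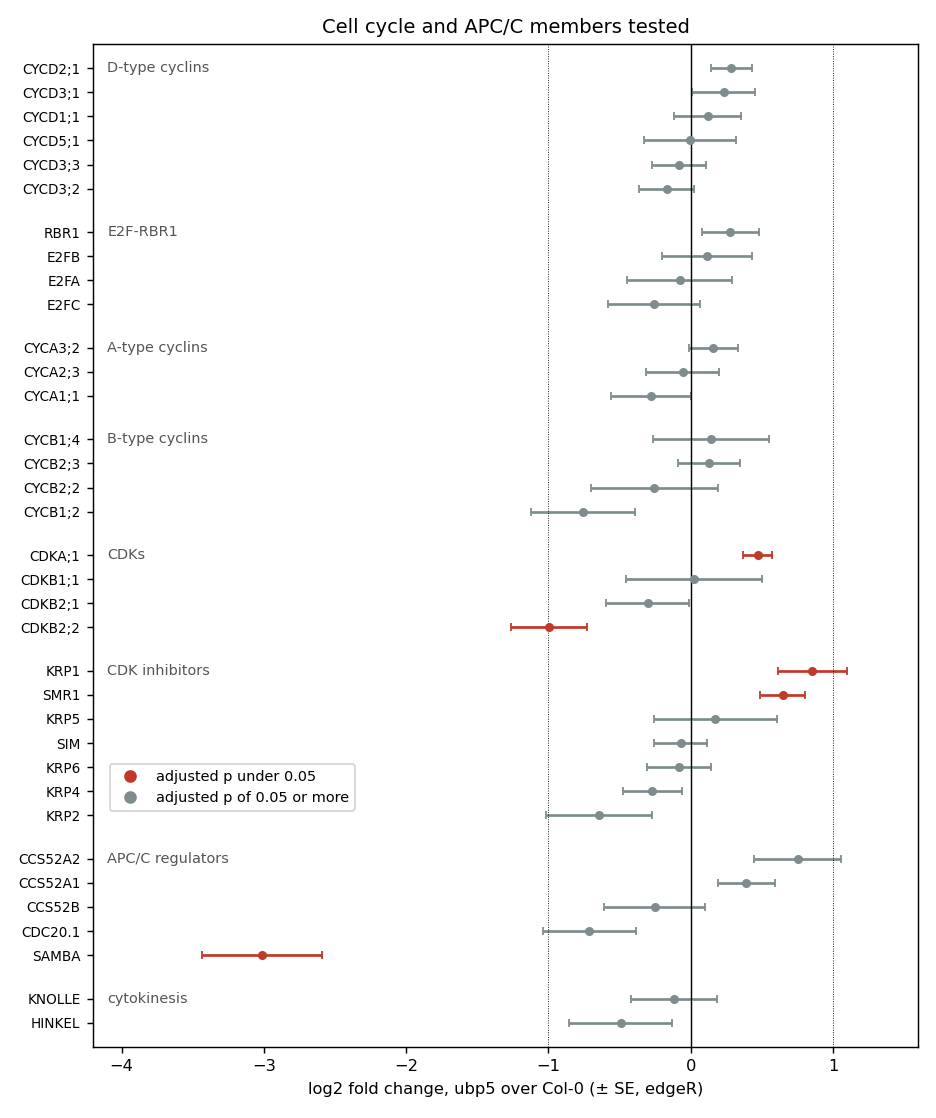
Log2 fold change (*ubp5* over Col-0, horizontal axis) with its standard error for the 35 tested members, grouped by family. The 5 red points have an adjusted p under 0.05 in edgeR, dotted lines mark log2 fold changes of -1 and 1, and SAMBA at -3.01 lies far to the left of every other member.

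SAMBA (AT1G32310, 3 exons on the plus strand, chr1:11653500-11654833 in TAIR10.1) is so named in the RefSeq gene table, although the RefSeq annotation gives the same identifier the product name of a valine-tRNA ligase. It had 8, 2, 2 and 2 counts in the *ubp5* libraries, against 36, 38, 51 and 28 counts in the Col-0 libraries. As CPM this was 1.79 ± 1.55 in *ubp5* and 14.3 ± 4.05 in Col-0 (SD, n = 4 each), and every *ubp5* library was below every Col-0 library. The log2 fold change was -3.01 (SE 0.42, adjusted p = 0.000781 in edgeR). Because 3 of the *ubp5* libraries held only 2 counts, the ratio of summed counts is the safer measure of size: 0.120, with an exact 95% interval of 0.0643 to 0.208 that covers counting error only. *ubp5* replicate 1, with 8 of the 14 *ubp5* counts, was the highest of its group, and without it the log2 fold change was -3.81. SAMBA passed the filter through its Col-0 libraries, since only 1 *ubp5* library reached the filter value. The adjusted p stayed under 0.05 in all 14 alternative settings, with log2 fold changes from -3.81 to -2.70.

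The stretch between SAMBA and the gene before it (AT1G32300) is short, and it is shown because it lies directly upstream of the member with the largest change. It spans 119 bases at chr1:11653381-11653499 on the plus strand of TAIR10.1 (RefSeq), and none of the 4 motifs described further on was found in it on either strand, so no letters are in capitals.
SAMBA upstream: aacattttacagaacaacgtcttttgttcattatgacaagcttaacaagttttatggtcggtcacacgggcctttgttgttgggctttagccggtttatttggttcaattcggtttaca

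The other regulators of the APC/C were spread on both sides of 0. CCS52A2, an activator at mitotic exit and in endoreduplication, had 5.61, 4.97, 4.23 and 6.34 CPM in *ubp5*, against 2.28, 3.97, 4.14 and 2.34 CPM in Col-0. These groups did not overlap, but by a small margin, and the log2 fold change of 0.75 (SE 0.31) did not pass (adjusted p = 0.145 in edgeR). Its paralogue CCS52A1 had 23, 32, 16 and 27 counts in *ubp5* and 30, 18, 25 and 25 counts in Col-0, with a log2 fold change of 0.39 (SE 0.20, adjusted p = 0.248 in edgeR). CDC20.1, the mitotic activator, had a log2 fold change of -0.71 (SE 0.33, adjusted p = 0.195 in edgeR), and CCS52B one of -0.25 (SE 0.35). CDC20.1 and CDC20.2 are near-identical copies lying side by side on chromosome 4. Only single mapping positions were kept, so reads that match both were lost and both counts may be too low. Summed over the 5 CCS52 and CDC20 genes, the level was 28.2 to 34.4 CPM in *ubp5* and 27.7 to 40.9 CPM in Col-0, and the groups overlapped. Of the 12 core APC/C subunit genes, 10 were tested, 5 had positive and 5 negative log2 fold changes (-0.43 to 0.38), and 0 passed in edgeR, with 0 at an unadjusted p under 0.05 and 0 in DESeq2. CDC27A, 1 of the 2 genes for the CDC27 subunit, was too low to test at 1, 0, 0 and 2 counts in *ubp5* against 6, 4, 4 and 6 counts in Col-0, a ratio of summed counts of 0.197 (exact 95% interval 0.0376 to 0.666, counting error only). HBT, its paralogue, had a log2 fold change of -0.22 (SE 0.18). APC2, the other untested core subunit gene, had 5, 6, 10 and 4 counts in *ubp5* against 9, 19, 7 and 19 counts in Col-0. Its ratio of summed counts was 0.609 (exact 95% interval 0.363 to 0.996, counting error only). CDC27A and APC2 were described after their values were seen.

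**Figure D2:**
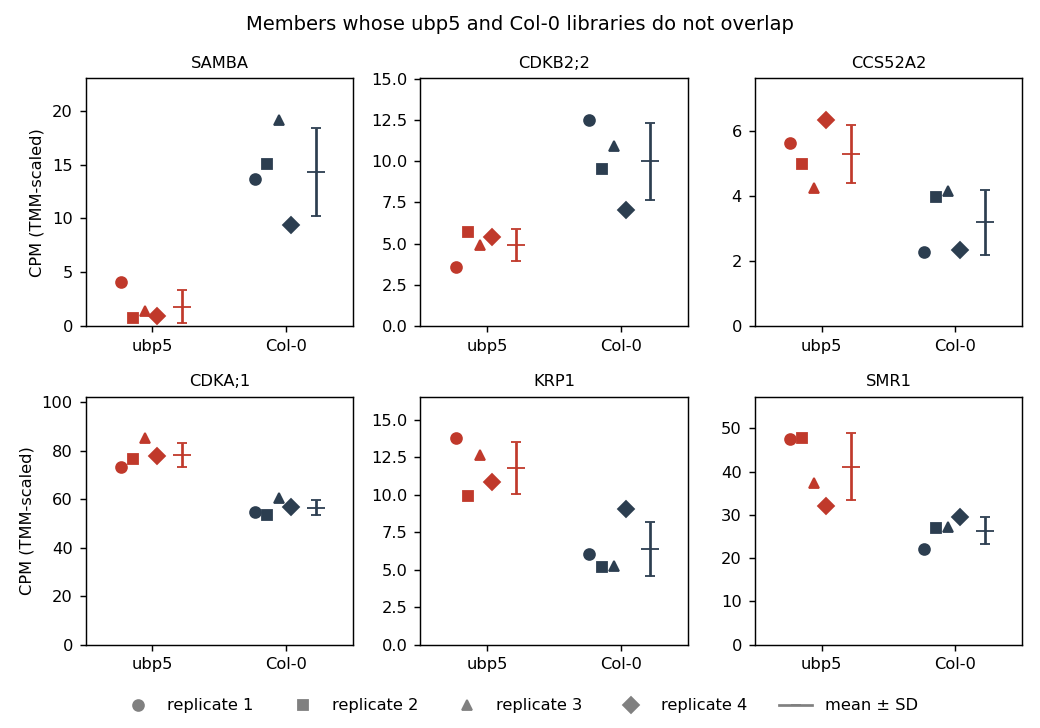
CPM (vertical axes, each from 0) in every library of the 6 members whose *ubp5* libraries (red, left) and Col-0 libraries (dark, right) do not overlap. Symbols give the replicate and bars the mean ± SD of 4 libraries. SAMBA and CDKB2;2 are lower and the other 4 higher in *ubp5*, and the gap between the groups is narrow for CCS52A2, KRP1 and SMR1.

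Among the kinases, CDKA;1, the kinase that works throughout the cycle, rose and CDKB2;2, whose protein acts at the G2 to M transition, fell. CDKA;1 (AT3G48750, chr3:18071454-18074641) had 73.5, 76.8, 85.2 and 77.8 CPM in the *ubp5* libraries, against 54.7, 53.6, 60.6 and 56.9 CPM in the Col-0 libraries. The spread within each genotype was small beside the gap, and the log2 fold change was 0.47 (SE 0.10, adjusted p = 0.0115 in edgeR). It passed in all 14 alternative settings, with log2 fold changes from 0.43 to 0.51. CDKB2;2 (AT1G20930, chr1:7292389-7294746) had 7, 15, 7 and 12 counts in *ubp5*, against 33, 24, 29 and 21 counts in Col-0, which is 4.92 ± 0.955 CPM in *ubp5* and 10.0 ± 2.33 CPM in Col-0 (SD, n = 4 each). Its log2 fold change of -0.99 (SE 0.27, adjusted p = 0.0318 in edgeR) kept its direction, but the adjusted p was over 0.05 in 9 of the 14 alternatives: in DESeq2 (0.0910), with a replicate block (0.0806), and without any 1 of the 4 *ubp5* libraries or of Col-0 replicates 1, 2 and 3 (0.0533 to 0.0917). The other B-type kinase genes did not pass: CDKB2;1 had a log2 fold change of -0.30 (SE 0.29) and CDKB1;1 one of 0.02 (SE 0.48). CDKB1;2 was not tested and had 6, 4, 1 and 1 counts in *ubp5* against 11, 11, 6 and 8 counts in Col-0. The 4 B-type kinase genes together had 17.3, 22.5, 16.2 and 25.8 CPM in *ubp5* and 25.4, 37.3, 28.6 and 28.8 CPM in Col-0, so that *ubp5* replicate 4 just overlapped Col-0 replicate 1.

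Genes of CDK partners were counted from a list of 8, of which 6 were tested. CKS1, a small subunit that docks CDKs on their substrates, was the only 1 of the 6 to pass in edgeR, with 66, 108, 50 and 84 counts in *ubp5* against 136, 152, 129 and 161 counts in Col-0. As CPM the *ubp5* libraries (37.0 ± 3.34) were all below the Col-0 libraries (53.6 ± 5.00, SD, n = 4 each), with a log2 fold change of -0.52 (SE 0.12, adjusted p = 0.0148 in edgeR, and 0.0527 without *ubp5* replicate 1). Of the other 5, 4 had negative values, among them CKS2 at -0.48 (SE 0.21, adjusted p = 0.166 in edgeR).

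Of the CDK inhibitor genes, 7 of 10 were tested. By the adjusted p in edgeR, 2 passed as higher (4.59% of all tested genes did) and 0 as lower (6.34% of all). In DESeq2 1 passed, SMR1. KRP1 (AT2G23430, chr2:9976590-9978090), a member of the KRP family that binds CDKA and D-type cyclins, had 27, 26, 18 and 24 counts in *ubp5*, against 16, 13, 14 and 27 counts in Col-0. Scaled to library size the groups did not overlap, at 9.93 to 13.8 CPM in *ubp5* and 5.16 to 9.03 CPM in Col-0, Col-0 replicate 4 being the highest of its group. The log2 fold change was 0.85 (SE 0.24, adjusted p = 0.0414 in edgeR), and it was over the threshold in the same 9 alternatives as CDKB2;2, at 0.0932 in DESeq2, 0.0724 with the replicate block and 0.0554 to 0.111 without those libraries. SMR1 (AT3G10525, chr3:3281306-3282131), of the SIAMESE-RELATED family that restrains mitotic CDK activity and is linked to endoreduplication, had 47.5, 47.8, 37.3 and 32.1 CPM in *ubp5*, against 22.0, 27.0, 27.1 and 29.4 CPM in Col-0. Its log2 fold change was 0.65 (SE 0.16, adjusted p = 0.0214 in edgeR), with an adjusted p of 0.0698 without *ubp5* replicate 1, 0.0690 without *ubp5* replicate 2 and 0.0610 with the replicate block. SIM, the founding member of that family, had a log2 fold change of -0.07 (SE 0.19), and its difference from SMR1 was not tested. KRP4, KRP6, KRP5 and KRP2 had log2 fold changes of -0.27, -0.08, 0.17 and -0.64, and the 7 KRP genes summed to 55.6 to 65.2 CPM in *ubp5* and 55.4 to 65.1 CPM in Col-0, close to the same range.

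D-type cyclins showed little difference, with 6 of 10 tested and log2 fold changes from -0.17 to 0.29. CYCD2;1, the most counted of them, had 50, 79, 39 and 56 counts in *ubp5* and 54, 49, 71 and 67 counts in Col-0. Its log2 fold change of 0.29 (SE 0.15) did not pass (adjusted p = 0.245 in edgeR). Neither did CYCD3;1 (0.23), CYCD3;2 (-0.17) or CYCD3;3 (-0.08), the cyclins known for cytokinin-dependent divisions in leaves. The summed level of the 10 genes was 89.3, 102.8, 112.0 and 108.2 CPM in *ubp5*, against 86.9, 103.2, 102.3 and 103.4 CPM in Col-0, and replicate 1 was the lowest of both groups.

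RBR1, the retinoblastoma-related repressor, had 34, 59, 38 and 31 counts in *ubp5* and 38, 45, 49 and 45 counts in Col-0, with a log2 fold change of 0.28 (SE 0.20, adjusted p = 0.427 in edgeR). E2FA, E2FB and E2FC, of which E2FA and E2FB are known as activators and E2FC as a repressor, had log2 fold changes of -0.08, 0.11 and -0.26, with SEs of 0.32 to 0.37. DEL1, an atypical E2F that acts against the start of endoreduplication, was too low to test. From the list of 4 E2F partner genes outside the members, DEL2, another atypical E2F gene, was called lower. It had 1 count in each *ubp5* library, against 18, 16, 11 and 15 counts in the Col-0 libraries. The ratio of summed counts was 0.0878 (exact 95% interval 0.0232 to 0.237, counting error only), with an adjusted p of 0.000392 in edgeR. DEL2 passed the filter only through its Col-0 libraries, since 0 of the *ubp5* libraries reached the filter value, so a tested DEL2 had to be lower in *ubp5*. DPA and DPB, the dimerisation partners of E2F factors, had log2 fold changes of 0.14 and -0.08.

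The DNA replication genes that E2F factors are known to control were given by a list of 12, all of which were tested. In 11 of them the log2 fold change was positive, with a median of 0.60 against -0.01 over all tested genes, and 7 of the 11 had an unadjusted p under 0.05 (11.7% of all tested genes were higher at that level), but only 2 passed the adjusted p. These were the genes of the small and the large subunit of ribonucleotide reductase, which makes the deoxyribonucleotides for DNA synthesis. TSO2, the small subunit, had 39.8, 50.0, 40.9 and 43.9 CPM in *ubp5*, against 21.6, 27.0, 23.7 and 34.1 CPM in Col-0, a log2 fold change of 0.72 (SE 0.16, adjusted p = 0.0115 in edgeR). RNR1, the large subunit, had 42.4, 48.9, 43.0 and 43.4 CPM in *ubp5*, against 24.7, 25.0, 31.2 and 32.8 CPM in Col-0, a log2 fold change of 0.64 (SE 0.13, adjusted p = 0.009 in edgeR). All *ubp5* libraries were above all Col-0 libraries for both genes, and both passed in all 14 alternatives. The 6 MCM helicase genes had log2 fold changes from 0.38 to 0.79 and adjusted p-values from 0.0636 to 0.475 in edgeR. The exception was CDC6, a loading factor of the helicase, with 6, 7, 2 and 7 counts in *ubp5* against 13, 14, 12 and 15 counts in Col-0 and a log2 fold change of -0.89 (SE 0.30, adjusted p = 0.0773 in edgeR). CDC6 likewise passed the filter only through Col-0, with 0 *ubp5* libraries at the filter value. The 12 genes summed to 195, 233, 195 and 218 CPM in *ubp5*, against 114, 148, 127 and 178 CPM in Col-0, and these sums did not overlap.

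**Figure D3:**
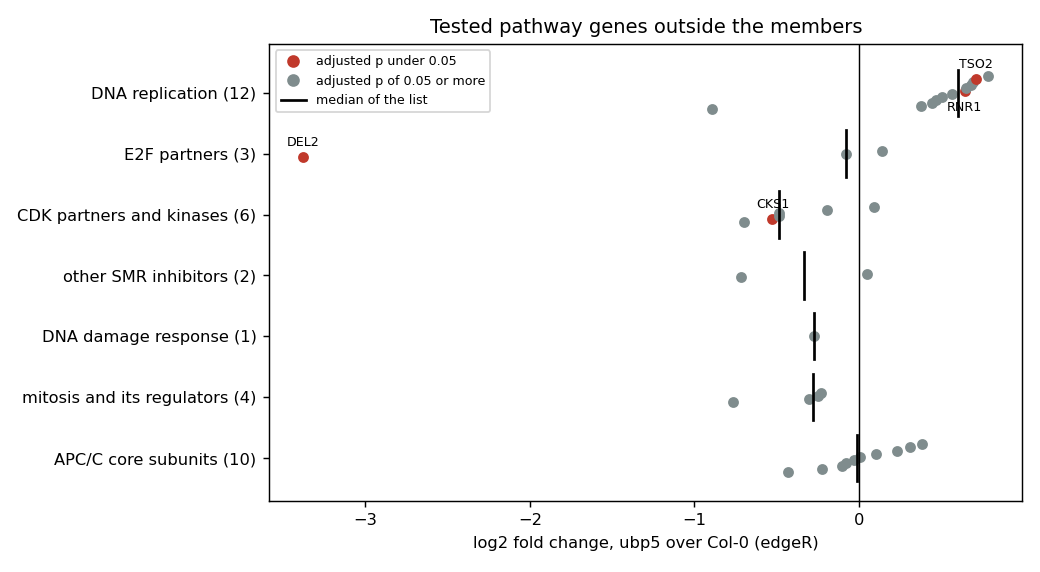
Log2 fold change (*ubp5* over Col-0, horizontal axis) of the 38 tested pathway genes that are not members, 1 point a gene, by list with the number tested in brackets. Red points have an adjusted p under 0.05 in edgeR and black bars are list medians. The DNA replication list sits to the right of 0 with a median of 0.60 except for CDC6, and DEL2 lies far to the left at -3.38.

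The A-type cyclins, among which SAMBA is known to affect protein stability, gave no call at the transcript level. Of 7 genes 3 were tested, CYCA3;2 at 0.16 (SE 0.17), CYCA2;3 at -0.06 (SE 0.26) and CYCA1;1 at -0.28 (SE 0.28), and 0 passed in edgeR, with 0 at an unadjusted p under 0.05 and 0 in DESeq2. CYCA3;2, the most counted, had 38, 65, 23 and 50 counts in *ubp5* and 43, 43, 53 and 66 counts in Col-0. The 7 genes summed to 33.1 to 45.1 CPM in *ubp5* and 32.6 to 49.2 CPM in Col-0, and the groups overlapped throughout.

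B-type cyclins and cytokinesis genes mark cells in G2 and mitosis, and none of them passed. Of the 8 B-type cyclins 4 were tested, with log2 fold changes from -0.76 to 0.14, 0 past the adjusted p in edgeR, 0 at an unadjusted p under 0.05 and 0 in DESeq2. CYCB2;3, the most counted, had 25, 41, 23 and 36 counts in *ubp5* and 29, 51, 30 and 40 counts in Col-0, a log2 fold change of 0.13 (SE 0.22). CYCB1;2 had 5, 12, 6 and 16 counts in *ubp5* and 21, 25, 10 and 31 counts in Col-0, a log2 fold change of -0.76 (SE 0.37, adjusted p = 0.217 in edgeR). KNOLLE, the syntaxin of the dividing cell plate, had 26, 38, 11 and 33 counts in *ubp5* and 21, 59, 33 and 38 counts in Col-0. Its log2 fold change of -0.12 (SE 0.30) turned positive without *ubp5* replicate 3 (0.02) or without Col-0 replicate 2 (0.22). HINKEL, a kinesin needed to build the cell plate, had a log2 fold change of -0.49 (SE 0.36). The 4 tested genes of the mitosis list (AUR1, AUR2, TPX2 and MYB3R1) had negative values from -0.77 to -0.23, and 0 passed in edgeR or in DESeq2, with 1, MYB3R1, at an unadjusted p under 0.05.

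Levels of the mitotic genes varied widely among libraries of 1 genotype. The 8 B-type cyclins summed to 33.7, 37.8, 34.5 and 46.2 CPM in *ubp5* and to 34.9, 61.5, 24.5 and 51.2 CPM in Col-0, so that the Col-0 libraries spanned a range that held every *ubp5* library. The sums of SIM, SMR1 and SMR7 were 71.9, 67.6, 70.4 and 57.5 CPM in *ubp5* and 47.8, 50.4, 53.8 and 51.8 CPM in Col-0, with no overlap, but SMR1 alone carried that gap: SIM and SMR7 together had 19.9 to 33.1 CPM in *ubp5* and 22.4 to 26.7 CPM in Col-0. The sums of the 5 SMR genes outside the members (SMR2 to SMR6) also overlapped. They were 10.3 to 20.4 CPM in *ubp5* and 15.5 to 19.4 CPM in Col-0. Single genes of this list differed in direction. SMR2 had a log2 fold change of -0.71 (SE 0.30, adjusted p = 0.156 in edgeR), and SMR3 one of 0.05 (SE 0.39). SMR4, SMR5 and SMR6 were too low to test. Their ratios of summed counts were 2.50 (1.11 to 6.02), 1.755 (0.297 to 12.0) and 1.71 (0.919 to 3.23). These exact intervals cover counting error only. SMR6 did not overlap, at 2.67 to 3.62 CPM in *ubp5* against 1.34 to 2.28 CPM in Col-0. SMR3 to SMR6 were described after their values were seen. At these depths the SEs of the B-type cyclins were 0.22 to 0.45 on the log2 scale, and a change of that size in them was not detectable.

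**Figure D4:**
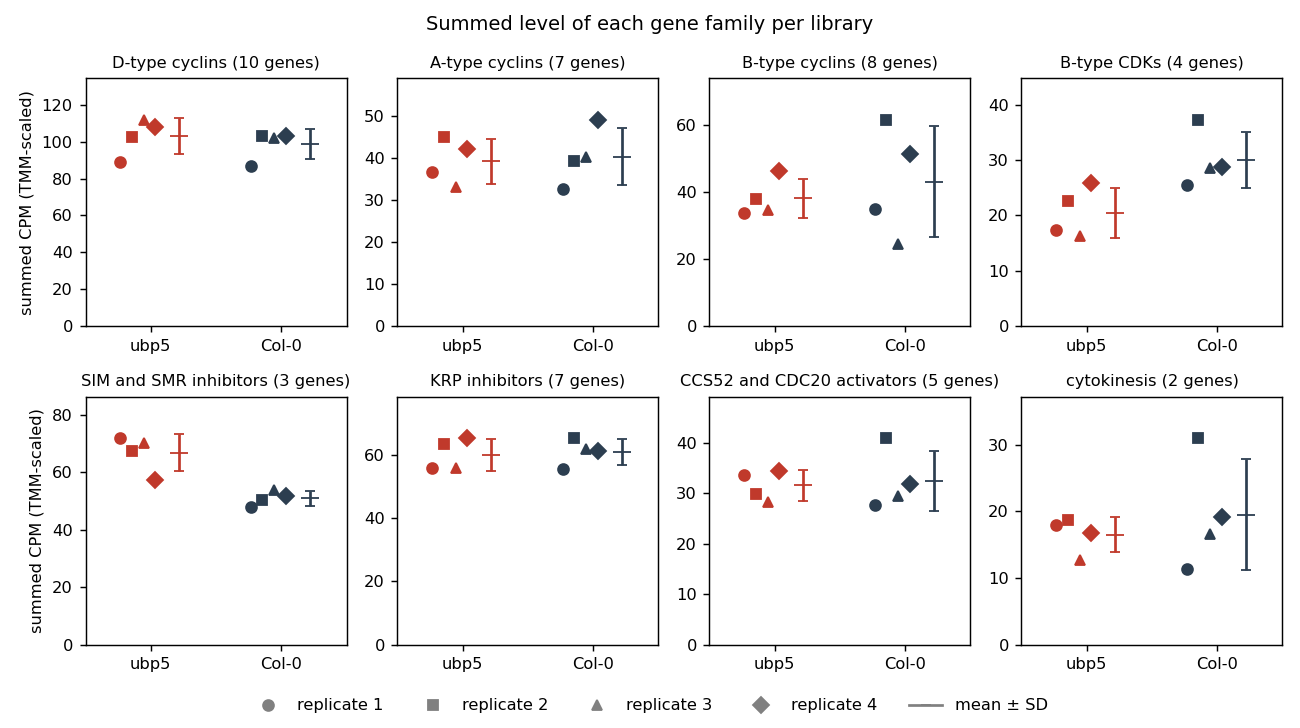
Summed CPM (vertical axes, each from 0) of 8 gene families in every *ubp5* library (red, left) and Col-0 library (dark, right), with the replicate as symbol and the mean ± SD of 4 libraries as bar. The sums of SIM, SMR1 and SMR7, at 57.5 to 71.9 CPM in *ubp5*, lie above the 47.8 to 53.8 CPM of Col-0 through SMR1 alone, and the other 7 families overlap.

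Grouped by the phase in which each member is known to act, the medians of the tested members had different signs. The 12 members of G2 and mitosis (7 tested) had a median log2 fold change of -0.26, and the 16 of G1 and S-phase entry (11 tested) one of 0.11. SEs of single members were 0.22 to 0.48 in the former and 0.10 to 0.37 in the latter. Medians elsewhere were -0.06 (S phase to mitosis), -0.07 (CDK inhibition), -0.25 (mitotic exit and APC/C) and -0.31 (cytokinesis), and differences between phases were not tested. The G2 and mitosis members summed to 50.7 to 72.0 CPM in *ubp5* and 53.0 to 98.8 CPM in Col-0, and the groups overlapped. The G1 and S-phase members summed to 197.5 to 242.3 CPM in *ubp5*, just above the 173.4 to 197.0 CPM of Col-0, and CDKA;1, grouped there although it acts throughout the cycle, made up 73.5 to 85.2 CPM of the *ubp5* sums and 53.6 to 60.6 CPM of the Col-0 sums. Without CDKA;1 the sums overlapped, at 124.0 to 157.1 CPM in *ubp5* and 118.8 to 140.1 CPM in Col-0. The 6 APC/C regulators summed to 29.6 to 37.8 CPM in *ubp5* and 41.1 to 56.0 CPM in Col-0, which did not overlap, while the same sums without SAMBA did. All 53 members together came to 493 ± 16.8 CPM in *ubp5* and 481 ± 46.6 CPM in Col-0 (SD, n = 4 each), a difference smaller than the SD in Col-0.

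The 18 untested members had 3 to 63 counts over all 8 libraries, against 78 to 1248 for those tested. In 4 of them the exact 95% interval of the ratio of summed counts left out 1, and these are named after their values were seen. CYCB1;1, the marker cyclin of the G2 to M transition and of DNA damage, had 7, 13, 6 and 9 counts in *ubp5* and 4, 9, 2 and 10 counts in Col-0, a ratio of 1.84 (1.07 to 3.21). SMR7, an inhibitor known to be induced by DNA damage, had 6, 7, 3 and 13 counts in *ubp5* and 4, 4, 3 and 8 counts in Col-0, a ratio of 2.01 (1.09 to 3.79). In the other direction stood CYCB2;4, with 2, 6, 1 and 4 counts in *ubp5* against 6, 12, 8 and 24 counts in Col-0 (0.342, 0.171 to 0.640), and CDKB1;2 (0.439, 0.208 to 0.863). These intervals cover counting error only, and without the filter none of the 4 passed in edgeR (adjusted p = 0.267 for CYCB1;1, 0.230 for SMR7, 0.0675 for CYCB2;4 and 0.192 for CDKB1;2).

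The MSA element, with the core CNAACGG, is the known binding motif of the MYB3R factors that time mitotic transcription, and the sites are shown because most B-type cyclins hold one. In the window from 250 bases before to 50 bases from the start of each gene, on both strands, the motif was found in 5.52% of 27443 protein-coding genes of TAIR10.1 (RefSeq) and in 11 of the 53 members: 7 of the 8 B-type cyclins (all but CYCB2;4), CYCA1;1, KNOLLE, HINKEL and RBR1. It was in 0 of the 4 B-type kinase genes, CDKB2;2 among them. The site nearest to the start is given for the first 10 of these in the direction of the motif, with the motif in capitals.
CYCB1;1 (chr4:17624353-17624379, + strand): taaatgaaccCCAACGGtctgattgtt
CYCB1;2 (chr5:1861684-1861710, + strand): ggaggaggagCCAACGGttcaattcca
CYCB1;3 (chr3:3627298-3627324, - strand): agttcatcatCCAACGGctagaagtct
CYCB1;4 (chr2:11401133-11401159, + strand): ctcttcgtccCCAACGGctagtaataa
CYCB2;1 (chr2:7663958-7663984, + strand): ccctcatgatCCAACGGttatattcta
CYCB2;2 (chr4:16901460-16901486, + strand): ccttcatgatCCAACGGtcatcttaat
CYCB2;3 (chr1:7137880-7137906, - strand): tggcgttgatCCAACGGctgagatgaa
CYCA1;1 (chr1:16777518-16777544, + strand): attcgaatttCAAACGGaaataaattc
KNOLLE (chr1:2710972-2710998, + strand): tttcttcgccCCAACGGctatattttg
HINKEL (chr1:6324373-6324399, + strand): tgacgaacctCTAACGGctagttcttt
Of these 11 members 8 were tested, 3 with positive and 5 with negative log2 fold changes (-0.76 to 0.28), and 0 passed the adjusted p in edgeR.

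E2F factors are known to bind words of the kind TTTCCCGC, TTTGGCGC, TTTGCCGC and TTTCGCGC, which were found in the same window in 1.76% of all genes. The members RBR1, SMR7 and CYCD3;3 and 8 of the 52 pathway genes held 1 or more. The sites of the 6 replication genes among these are printed with that of RBR1 and the motif in capitals.
MCM2 (chr1:16970190-16970217, + strand): ggcgccaataTTTCCCGCctaatcgacg
MCM3 (chr5:18773859-18773886, + strand): tacgcgcttgTTTGGCGCgtttgatttc
MCM4 (chr2:7130747-7130774, + strand): ttcacttgatTTTGGCGCcattattact
MCM5 (chr2:3527502-3527529, - strand): ggcccatcagTTTCCCGCcacattgttc
MCM6 (chr5:18010696-18010723, + strand): cctctaacatTTTCCCGCtaaaaagtat
RNR1 (chr2:9293261-9293288, - strand): gttttgggatTTTCCCGCcagcttctag
RBR1 (chr3:3919418-3919445, - strand): aaatatgtaaTTTCCCGCgtgacctaaa
The 6 replication genes had log2 fold changes from 0.38 to 0.79 and RBR1 one of 0.28, and RNR1 alone of these 7 passed. CYCD3;3 had a log2 fold change of -0.08, and SMR7 was not tested. TSO2, which also passed, held none of these words in its window. The words were also absent for MCM7 (0.47), PCNA1 (0.68), PCNA2 (0.45), CDT1A (0.51) and CDC6 (-0.89), so replication genes without a site were mostly higher as well. A pair of other motifs, the telobox AAACCCTA and the GAGA repeat GAGAGAGA, are known from sites that recruit Polycomb complexes. The telobox was in 4 of the 53 members, beside 6.22% of all genes, and the GAGA repeat was in 8 of 53, beside 8.38% of all genes. Of the members that passed the adjusted p, none held any of the 4 motifs, and CCS52A2 held a telobox. A match to a motif is a description of the letters and not a measurement of binding.

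Markers of tissues were read from 26 genes in 5 lists, 14 of them tested. The 4 leaf mesophyll genes summed to 25213 to 27922 CPM in *ubp5*, against 28909 to 39575 CPM in Col-0, and RBCS1A (-0.49) and LHCB2.1 (-1.12) passed as lower in edgeR. KNAT1, of the shoot meristem and stem, passed as higher (1.46), and FAMA, of the stomatal lineage, as lower (-0.82). Their lists did not move as 1: of the 4 tested shoot meristem genes 3 had positive values and CLV1 a negative one (-0.53). TMM, also tested in the stomatal list, was at -0.13. The untested stomatal genes SPCH, BASL, MUTE and EPF2 had ratios of summed counts of 1.755, 1.41, 1.24 and 0.973. With 1 library left out, LHCB2.1 passed in 8 of 8 fits, KNAT1 and FAMA in 3 and RBCS1A in 1. WUS and CLV3, which define the shoot stem cell niche, were at 0 in every library. The shoot meristem list summed to 56.1 to 77.5 CPM in *ubp5* and 45.9 to 83.7 CPM in Col-0, the root meristem list to 26.7 to 28.9 CPM in *ubp5* and 24.6 to 28.1 CPM in Col-0, and the stomatal list to 21.3 to 33.8 CPM in *ubp5* and 28.8 to 45.6 CPM in Col-0. PYK10, of the mature root, had 1567 to 2041 CPM in *ubp5* and 1139 to 1575 CPM in Col-0 (log2 fold change 0.36, adjusted p = 0.116 in edgeR), and the other 2 mature root genes, EXPA7 and COBL9, summed to 4.23 to 12.2 CPM in *ubp5* and 6.02 to 12.9 CPM in Col-0. The part of these shifts in the results on cell cycle genes was not tested.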

How the data were processed

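The deposited counts were used as given: the authors demultiplexed the 3' RNA-seq reads with BRBseqTools, mapped them with STAR 2.7.8a to TAIR10 (Araport11), kept single mapping positions on the sense strand, and counted distinct molecular identifiers per gene, without normalisation or pooling. Reads that match near-identical copies equally were therefore not counted. The 8 libraries were grouped by the genotype in the labels, and p-values measure the spread between 4 biological replicates a group. Counts were tested with edgeR 4.0.16 (TMM, filterByExpr, quasi-likelihood test, no covariates, R 4.3.3), and p-values were adjusted over the tested genes (Benjamini-Hochberg). CPM used TMM-scaled totals of the tested genes. SEs were the log2 fold change over the root of edgeR's F, and exact Clopper-Pearson intervals (95%) for ratios of summed counts cover counting error only. The scripts were tested on simulated data. Alternatives were DESeq2 1.42.0, other size factors and filters, a replicate block, an adjusted p of 0.01, no organelle genes, and each library left out (for pathway and marker genes chosen after seeing the data).

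Values in every library are given for members past the adjusted p, members whose groups do not overlap, the most counted member of each family, the 2 highest and 2 lowest fold changes, and SAMBA. Members and lists were chosen with earlier results of these data known. Gene positions, motifs and sequences come from RefSeq TAIR10.1, matched by identifier for all 53 members, since the counts hold no coordinates.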

Additional observations from a re-analysis of the deposited data

Results flagged for a closer look

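In Col-0, replicate 1 stood apart from the other libraries of its group in the summed level of the D-type cyclins, at 86.9 CPM where the next lowest Col-0 library had 102.3 CPM, a gap of 0.937 of the whole range of the group. The *ubp5* libraries had 89.3 to 112.0 CPM. The same library stood apart over all genes: the chi-square per degree of freedom of its counts against each other Col-0 library was 8.67 to 9.05, against 4.07 to 5.69 between the other Col-0 libraries. The D-type cyclin sum in Col-0 was the only 1 of 42 groups of 4 libraries that passed the limit of Dixon's test. Chance gives about 1 in 20, so 1 pass in 42 is no more than chance would give.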

How the results depend on the processing

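No member changed direction while past the threshold. SAMBA and CDKA;1 passed in all 14 alternatives, SAMBA alone at an adjusted p of 0.01. Members called higher numbered 0, and 0 to 1 with 1 library left out (1, KRP1, without Col-0 replicate 4). Members called lower numbered 1, 2 without the filter on low counts (CDKB2;2 joining SAMBA), and 1 to 2 with 1 library left out. By the adjusted p alone, 3 were higher and 2 lower, with ranges of 1 to 3 and 1 to 2 when 1 library was left out, and 1 was lower in DESeq2. With the replicate number as a block, 1 was higher and 1 lower. The labels give only numbers, so whether same-numbered libraries were paired is not known. Over all tested genes they did not deviate together (correlations from -0.12 to 0.03). A shared deviation in the cell cycle genes alone was not tested. The median log2 fold change of the tested members was -0.071, from -0.14 to 0.063 with 1 library left out, 0.039 without Col-0 replicate 2 and 0.063 without Col-0 replicate 4, so that its sign rests on those libraries. Over all genes, 445 were called higher without the filter, against 299, 465 without Col-0 replicate 1 and 184 at an adjusted p of 0.01, where 279 were called lower, against 459. With no fold threshold, 719 were higher and 992 lower, against 465 and 661 without *ubp5* replicate 1 and 468 and 636 without *ubp5* replicate 4. The depth limits the low members: 18 of 53 were below the filter on low counts, and without the filter none of these passed in edgeR.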

Other observations

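Several mitotic and S-phase genes had higher counts in replicates 2 and 4 than in replicates 1 and 3 of both genotypes, as values without a test. CDKB1;1 had 5, 20, 3 and 13 counts in *ubp5* and 5, 17, 7 and 23 counts in Col-0. CYCA3;1 had 1, 8, 1 and 6 counts in *ubp5* and 3, 10, 5 and 11 counts in Col-0. MCM7 had 35, 64, 27 and 53 counts in *ubp5* and 24, 50, 30 and 65 counts in Col-0. Library totals were also higher in *ubp5* replicates 2 and 4, at 2595285 and 2196706 counts, than in replicates 1 and 3, at 2005226 and 1440510 counts. In Col-0 the totals had no such order, at 2572842 and 2997743 counts in replicates 2 and 4 and 2639151 and 2735117 counts in replicates 1 and 3. These genes were chosen after their values were seen, and the labels do not say whether same-numbered libraries share a day or a plate.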
